A study of Mus musculus with 3 samples.

Results

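The chemokine ligands are the genes that encode the small proteins that direct the migration of leukocytes, and they were followed here across the cell classes of the mouse colon. A list of 34 ligand symbols was matched to the gene symbols of the deposited matrices, and 33 of the 34 were found among 32285 genes. Cxcl11 had no gene row and was not analysed here. Of the 33, 29 had at least 50 unique molecular identifiers (UMIs, each standing for 1 captured transcript) over the kept cells and are described by their levels. The study compared the colon of germ-free mice in 3 groups with 1 droplet-based, 3-prime single-cell RNA library each: mice given PBS (the PBS library), mice colonized with BT WT and mice colonized with BT mutant. All 3 groups shared the germ-free background and the tissue. The labels spell out neither BT nor the mutated gene, and give no time, age, sex or number of animals per library. With 1 library per group no test between groups was possible. Every difference below compares 3 libraries, and its interval covers counting error only.

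Chemokines act through G protein-coupled receptors on the cells they attract, and they fall into the CC, CXC, CX3C and C families by the spacing of their conserved cysteines. Some are made constantly and hold cells in place, such as Cxcl12 or the T-zone ligands Ccl19 and Ccl21a. Others are switched on by NF-kB or interferon signals and recruit neutrophils, monocytes or effector T cells. In the colon, epithelium, fibroblasts, endothelium, macrophages and lymphocytes each contribute ligands.

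After removal of barcodes with fewer than 300 genes or more than 25% mitochondrial UMIs, 3198, 7070 and 6138 cells remained in the PBS, the BT WT and the BT mutant library. Further below, 3 values in a row without library names are in this order. The matrices held 42003444 to 55436776 UMIs per library, and the median kept cell had 3355 to 3845 UMIs. The 33 ligands took up 19649, 30508 and 26657 UMIs. The cells were clustered without the chemokine and receptor genes and named from marker genes, so that each name ends in "-like". Of the markers of a class, 15 of 16 were at least 2-fold above the mean of the other named classes in macrophage or monocyte-like cells (led by Apoe, Lyz2 and C1qa), 12 of 12 in fibroblast-like cells (Dcn, Gsn and Dpt), 19 of 20 in colonocyte-like cells (Lypd8, Saa1 and Guca2a) and 12 of 15 in NK or innate lymphoid-like cells (Nkg7, Klrd1 and Ncr1). Unnamed cells were 22.7% of the PBS library, 5.06% of BT WT and 8.86% of BT mutant. Between 6 and 13 kept barcodes were shared by any pair of libraries. Levels are in CPM, the UMIs of the ligand over all UMIs of a class in a library, scaled to a common total, with exact Poisson 95% intervals in parentheses. Because the 3-prime assay counts each captured transcript once, levels of different ligands are not scaled by transcript length. The main source of a ligand is the named class of at least 30 cells with the highest mean CPM over the libraries.

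Macrophage or monocyte-like cells were the main source of more ligands than any other class. Of the 29 described ligands, 12 had their highest level in the macrophage or monocyte-like class: Ccl2, Ccl6, Ccl7, Ccl8, Ccl9, Ccl12, Ccl17, Ccl22, Ccl24, Cxcl2, Cxcl16 and Pf4. For Ccl22 this rests on 1, 4 and 0 UMIs there. Another 4 (Ccl3, Ccl4, Ccl5 and Xcl1) were highest in the NK or innate lymphoid-like class, and 4 (Ccl11, Cxcl1, Cxcl13 and Cxcl14) in the fibroblast-like class. Blood endothelial-like cells led for Cxcl9 and Cxcl12, colonocyte-like cells for Ccl20 and Cx3cl1, lymphatic endothelial-like cells for Ccl21a, and stem or transit-amplifying-like cells for Ccl28. The remaining sources also rest on few UMIs, in small classes: glia-like cells for Ccl25 (2 UMIs) and Cxcl10 (19 UMIs), and pericyte or smooth muscle-like cells for Cxcl5 (1 UMI). The macrophage or monocyte-like class, with 65, 72 and 132 cells in the 3 libraries, held 22.4, 21.9 and 29.6% of all ligand UMIs. The fibroblast-like class (147, 215 and 375 cells) held 17.8, 17.1 and 23.9%.

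**Figure D1:**
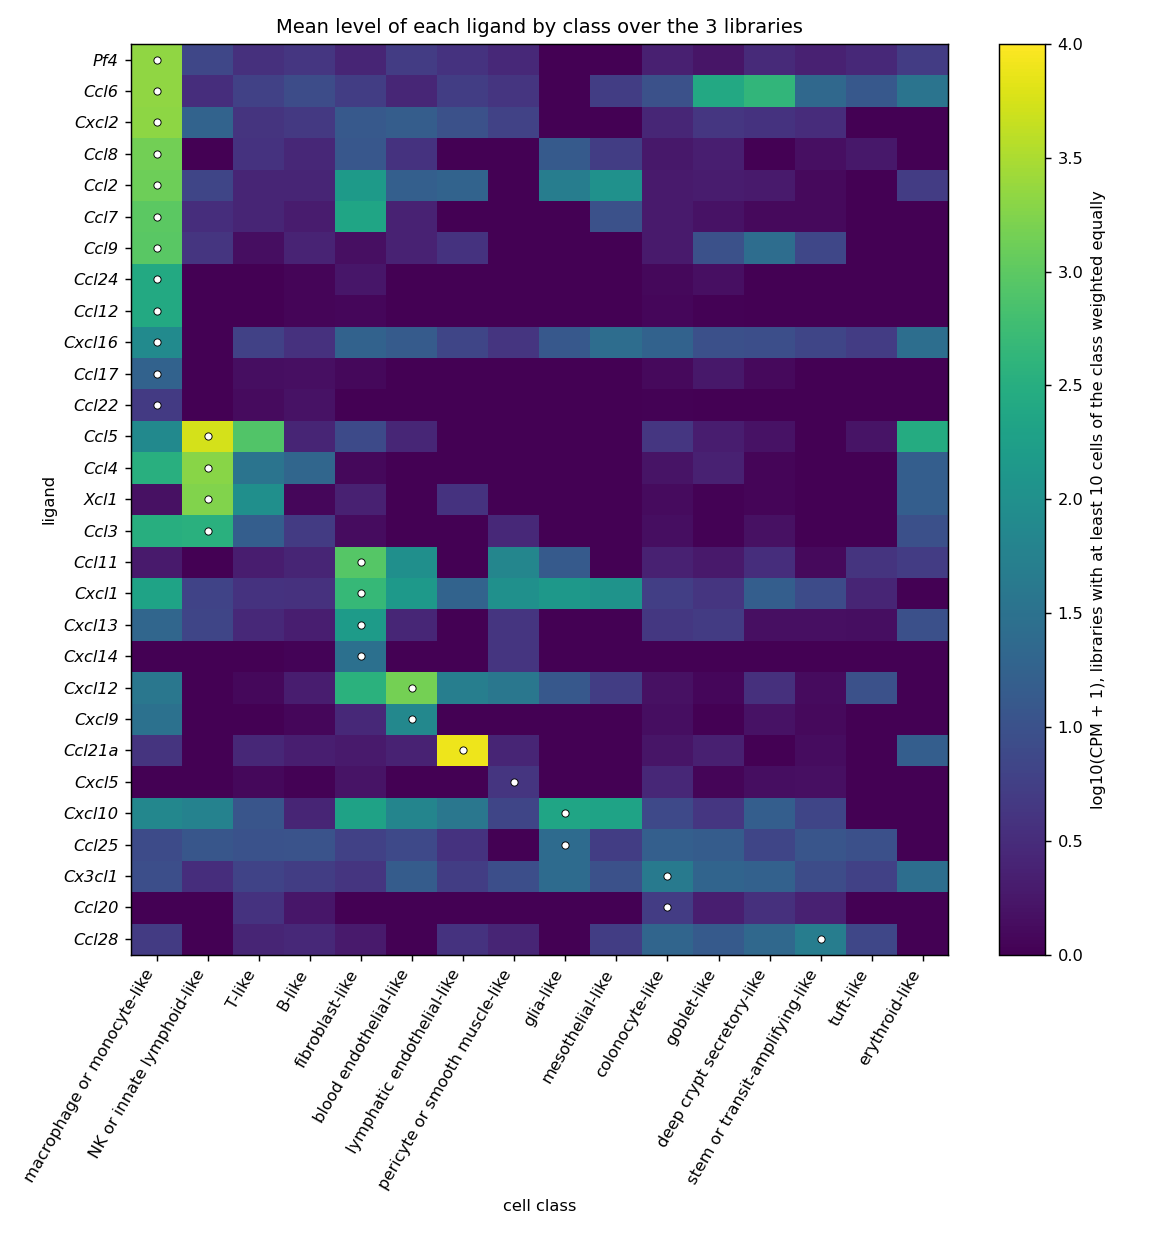
Mean level of each described ligand (rows) in 16 named cell classes (columns), as log10 of CPM plus 1 with each library weighted equally, and a white dot on the main source. Macrophage or monocyte-like cells hold 12 of the 29 white dots, and Ccl12, Ccl24, Pf4 and Ccl21a each have 1 bright column only.

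How sharply a ligand was tied to its source differed widely. Ccl21a, Ccl12, Ccl24, Pf4, Cxcl2 and Ccl8 exceeded the next named class by 534, 1396, 367, 354, 117 and 112 times in mean CPM. At the other end, the source exceeded the next class by 1.05 times for Ccl3 and 1.09 times for Cxcl10, so these 2 ligands had no single source in these libraries. By UMIs in place of CPM, large classes counted for more: colonocyte-like cells held 60.3% of Ccl25, 49.8% of Cxcl16 and 47.7% of Ccl28 UMIs, as means over the libraries. Genes that lie side by side did not always share a source. On chromosome 11, between 82035571 and 82116799 (GRCm38), Ccl2, Ccl7, Ccl12 and Ccl8 had macrophage or monocyte-like cells as source, and Ccl11, which lies among them, had fibroblast-like cells. Within 83525778 to 83664683 of the same chromosome, Ccl9 and Ccl6 were highest in macrophage or monocyte-like cells and Ccl5 and Ccl4 in NK or innate lymphoid-like cells. Within 90759360 to 90905938 of chromosome 5, Cxcl2 and Pf4 were highest in macrophage or monocyte-like and Cxcl1 in fibroblast-like cells.

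Between libraries, a ligand was counted as higher or lower where its CPM differed at least 2-fold, with at least 20 UMIs in both sums together and at least 30 cells of the class in each library. In BT WT over PBS, 16 ligands had a ratio in their main source. Of these, 5 were higher (Ccl12, Cxcl1, Cxcl2, Cxcl14 and Cxcl16) and 2 lower (Ccl20 and Cxcl13), while 9.87% of all pairs of a gene and one of these source classes were higher and 6.17% lower. In BT mutant over BT WT, none of 20 was higher and 4 were lower (Ccl7, Cxcl13, Cxcl14 and Cxcl16), against 3.51% and 4.83% of all pairs. In BT mutant over PBS, none of 18 was higher and 4 were lower (Ccl17, Ccl20, Cxcl13 and Cxcl14), against 5.96% and 5.54%. The comparisons share libraries pairwise, so they are not independent of each other.

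**Figure D2:**
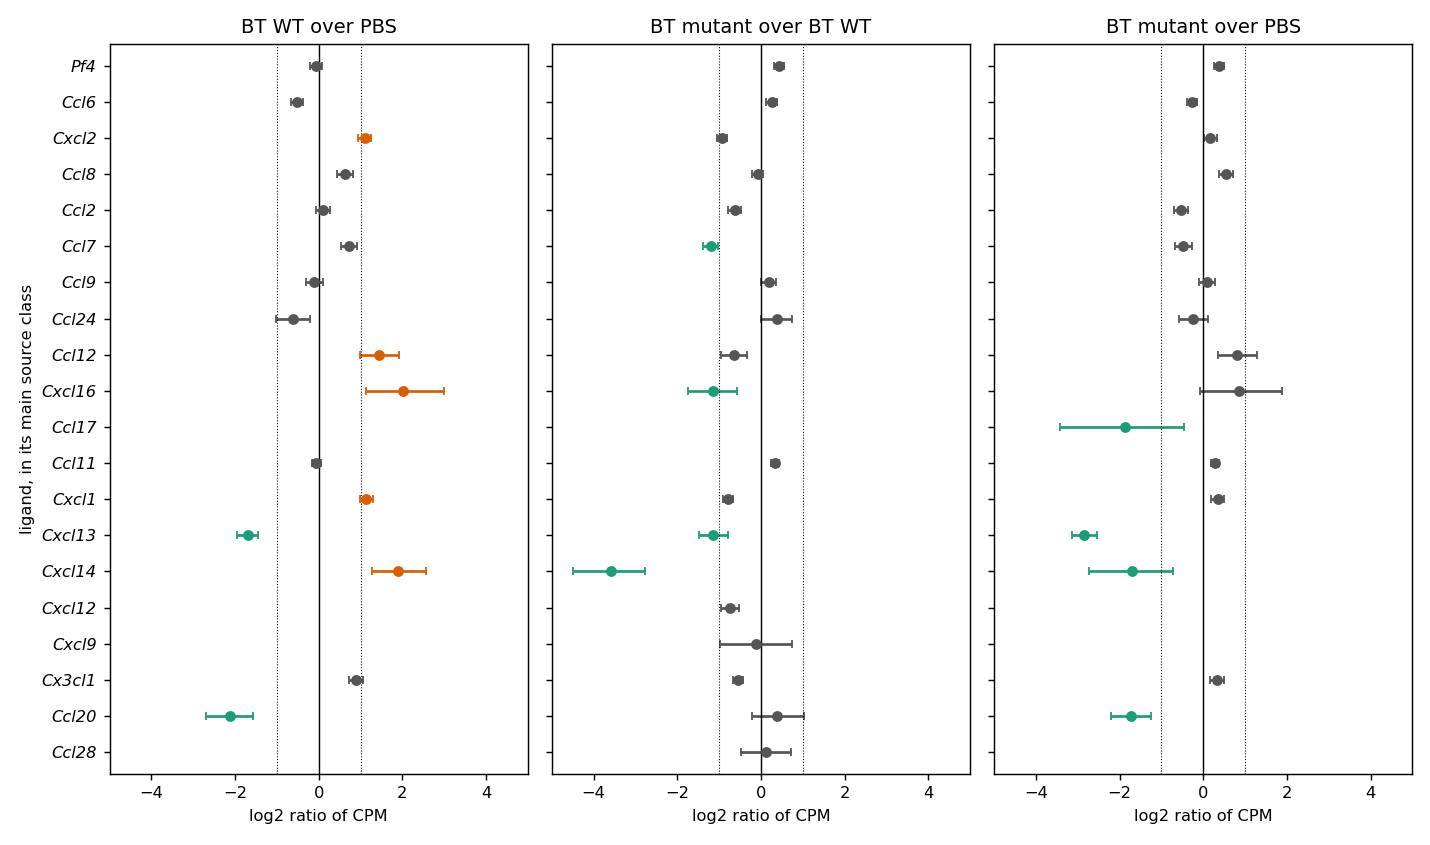
Log2 ratio of CPM between 2 libraries (x axis) for each ligand in its main source class (rows), in 3 panels for the 3 comparisons, with exact 95% counting intervals, and dotted lines at 2-fold. In BT WT over PBS 5 ligands lie past the right line and 2 past the left, and in both comparisons of BT mutant 4 lie past the left line and none past the right.

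In macrophage or monocyte-like cells the inflammatory ligands Cxcl2 and Ccl12 were higher in BT WT than in PBS, while the monocyte attractant Ccl7 was lowest in BT mutant. Pf4, Ccl6 and Ccl9 differed by less than 1.5-fold between any 2 libraries. Over all ligands with a ratio in this class, 5 of 17 were higher (Ccl12, Cxcl2, Cxcl9, Cxcl10 and Cxcl16) and 0 lower in BT WT than in PBS, beside 7.08% and 4.66% of all genes of the class. For BT mutant over BT WT, 1 of 18 was higher (Cxcl13) and 5 were lower (Ccl5, Ccl7, Cxcl1, Cxcl9 and Cxcl16), beside 4.18% and 5.34%. For BT mutant over PBS, 2 of 18 were higher (Cxcl10 and Cxcl13) and 4 lower (Ccl3, Ccl5, Ccl17 and Cxcl1), beside 7.06% and 5.52%. The median log2 ratio of the ligands was 0.48, -0.69 and -0.25 in these comparisons, against 0.03, -0.05 and -0.02 over all genes with a ratio. With the unnamed cells of the same cluster added to this class, Cxcl13 was instead lower in BT mutant. It was 2.37-fold (1.54 to 3.72) lower than in BT WT and 1.88-fold (1.14 to 3.11) lower than in PBS.

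The makeup of this class differed between libraries. A sub-cluster of low depth (median 909 UMIs per cell in PBS), led by Clec10a, Cd209d and Mrc1, made up 53.8% of the class in PBS, 15.3% in BT WT and 17.4% in BT mutant. A deeper sub-cluster led by Cd163, F13a1, Mrc1 and Lyve1, genes of tissue-resident macrophages, made up 33.8%, 44.4% and 55.3%. Dendritic cell markers were also present in the macrophage or monocyte-like class, at 1843, 1229.8 and 1571 CPM summed over 12 to 14 detected of 14 markers, in the 3 libraries. Neutrophil markers came to 145, 206 and 226 CPM (4 to 7 of 10 detected), and fibroblast markers to 159, 408 and 249 CPM (11 of 12). Their part in the ligand levels was not tested. Beside the ligands below stand values within the deeper sub-cluster, and values over the whole cluster, which adds the unnamed sub-clusters and has 91, 147 and 191 cells.

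Ccl2, Ccl7 and Ccl12 bind Ccr2, the receptor that brings monocytes from blood into tissue. Ccl2 stood at 1412 CPM (1293 to 1539.9) in PBS, 1507 (1397 to 1624) in BT WT and 977 (904 to 1055) in BT mutant. PBS and BT WT overlapped, and BT mutant was 1.54-fold (1.38 to 1.72) lower than BT WT. Over the whole cluster BT mutant was only 1.09-fold (0.989 to 1.20) lower, an interval that includes 1. Ccl7 stood at 880.4 CPM (787 to 982) in PBS, 1459.7 (1352 to 1574) in BT WT and 634 (575 to 697) in BT mutant, with no overlap of any 2 intervals. It was 2.30-fold (2.04 to 2.61) lower in BT mutant than in BT WT and 1.66-fold (1.45 to 1.90) higher in BT WT than in PBS. In the deeper sub-cluster the same order held for Ccl7, with 1183, 1768 and 822 CPM in the 3 libraries, but over the whole cluster BT mutant was 1.77-fold (1.57 to 1.99) lower than BT WT.

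Ccl12, the rodent member of these, stood at 145 CPM (109 to 190.1) in PBS, 395 (339 to 456) in BT WT and 253 (217 to 295) in BT mutant. PBS was lowest, and BT WT was 2.72-fold (1.99 to 3.76) higher than PBS. The order was the same in the deeper sub-cluster (210.0, 439 and 309 CPM), and BT WT was 2.36-fold (1.73 to 3.26) higher over the whole cluster. Ccl8, a further CC ligand of macrophages, stood at 1048 CPM (945 to 1158) in PBS, 1618 (1504 to 1738) in BT WT and 1532 (1439 to 1629) in BT mutant, higher in both colonized libraries than in PBS. Ccl2, Ccl7, Ccl8 and Ccl12 had 57.2%, 49.5%, 91.3% and 92.3% of their UMIs in this class, as means over the libraries, and Ccl2 and Ccl7 had most of the rest in fibroblast-like cells.

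Ccl6 and Ccl9, rodent ligands of Ccr1, were among the steady ligands. Ccl6 stood at 2569.8 CPM (2408 to 2739.8) in PBS, 1789 (1669 to 1916) in BT WT and 2133 (2023 to 2247) in BT mutant, and PBS was 1.44-fold (1.31 to 1.58) above BT WT. Ccl9 stood at 935 CPM (839 to 1040.0) in PBS, 869.8 (787 to 959) in BT WT and 989 (915 to 1068) in BT mutant, and all 3 intervals overlapped. Ccl24, an eotaxin that attracts eosinophils through Ccr3, stood at 318 CPM (263 to 382) in PBS, 208 (169 to 254) in BT WT and 269.8 (232 to 312) in BT mutant. PBS was highest, and its interval overlapped that of BT mutant. Pf4, a CXC ligand known from platelets and tissue macrophages, stood at 2024 CPM (1881 to 2175) in PBS, 1941 (1816 to 2073) in BT WT and 2620.0 (2499 to 2746) in BT mutant, highest in BT mutant by 1.35-fold (1.24 to 1.46) over BT WT. It was detected in 63.1%, 76.4% and 70.5% of macrophage or monocyte-like cells and in 0.937%, 0.664% and 1.15% of B-like cells, a class that should lack it. The median depth was 2078, 6158 and 4357.5 and 3496, 2874 and 2776 UMIs. With each cell thinned to 1000 UMIs, which 45, 61 and 104 macrophage or monocyte-like cells reached, the shares were 60%, 67.2% and 74.0% and, in B-like cells, 0.284%, 0.340% and 0.335%.

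**Figure D3:**
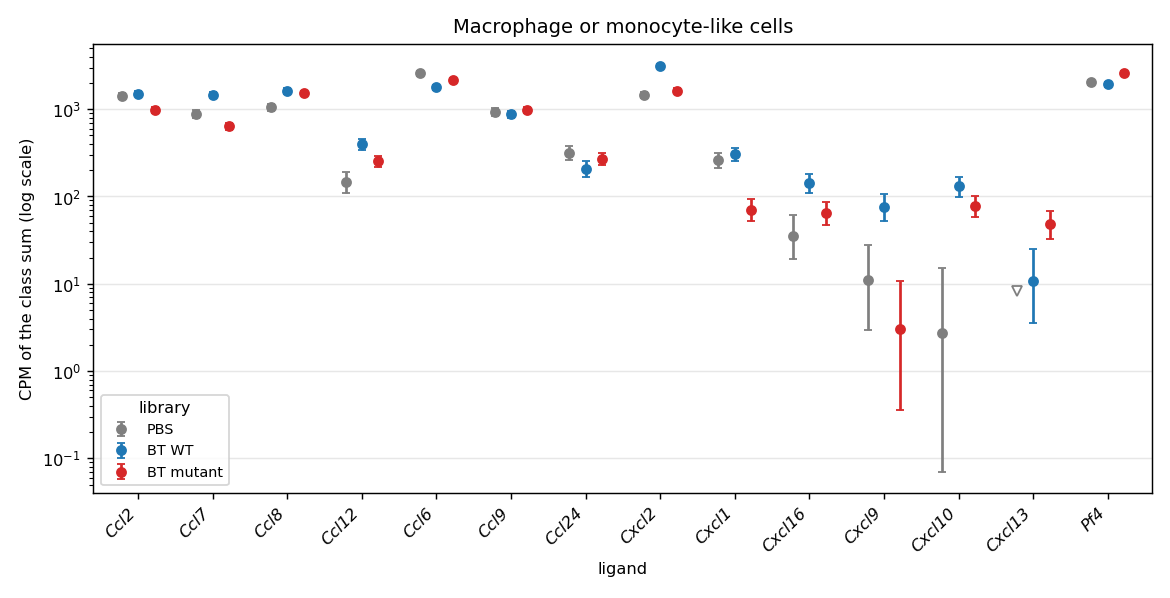
Levels of the ligands in macrophage or monocyte-like cells (CPM, log axis) in the PBS (grey), BT WT (blue) and BT mutant (red) libraries, with exact 95% Poisson intervals and open triangles at the floor of 3 UMIs where a library had 0. Cxcl2 and Ccl12 are highest in BT WT, Ccl7 and Cxcl1 are lowest in BT mutant, and the Pf4, Ccl6 and Ccl9 points lie close together.

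Cxcl1 and Cxcl2, neighbours on chromosome 5 that attract neutrophils through Cxcr2, had different main sources, and both were highest in BT WT. Their promoters are shown because each carries the NF-kB-type motif more than once, a choice made after the values were seen. The stretches lie at chr5:90891145-90891244, plus strand (Cxcl1) and chr5:90903797-90903898, plus strand (Cxcl2), 5′ to 3′ on the gene's strand, from RefSeq, build GRCm38.p6, as are those below. Capitals mark matches on either strand to the NF-kB-type motif, which reads GGG, then 2 bases of any kind, TT, 1 base of any kind and CC.
Cxcl1: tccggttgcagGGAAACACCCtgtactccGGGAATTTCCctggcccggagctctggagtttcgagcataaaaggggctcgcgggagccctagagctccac
Cxcl2: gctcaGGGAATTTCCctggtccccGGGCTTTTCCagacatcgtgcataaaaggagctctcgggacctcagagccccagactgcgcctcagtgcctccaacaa

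In Cxcl1 the matches start 89 and 71 bases before the transcription start, and in Cxcl2 97 and 78 bases before it. Each gene has the site gggaatttcc. The match says only that these letters are in the window. Cxcl1 (ENSMUSG00000029380) stood at 319.6 CPM (292 to 349) in PBS, 703 (664 to 743) in BT WT and 407 (383 to 432) in BT mutant in fibroblast-like cells. BT WT was 2.20-fold (1.98 to 2.45) higher than PBS and 1.73-fold (1.59 to 1.88) above BT mutant, with no overlap of intervals. Within macrophage or monocyte-like cells Cxcl1 stood at 261 CPM (211 to 319) in PBS, 304 (255 to 358) in BT WT and 70.4 (51.8 to 93.7) in BT mutant. There PBS and BT WT overlapped, and BT mutant was 4.31-fold (3.08 to 6.13) lower than BT WT. In blood endothelial-like cells BT mutant was lowest too, with 163 CPM in PBS, 186 in BT WT and 75.0 in BT mutant, which was 2.48-fold (1.40 to 4.58) lower than BT WT.

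Cxcl2 (ENSMUSG00000058427) stood at 1448 CPM (1327 to 1577) in PBS, 3093 (2935 to 3258) in BT WT and 1629 (1534 to 1729) in BT mutant in macrophage or monocyte-like cells. BT WT was 2.14-fold (1.93 to 2.36) higher than PBS and 1.90-fold (1.75 to 2.06) above BT mutant. It was found in 32.3%, 72.2% and 47.0% of these cells and in 1.59%, 0.997% and 0.984% of B-like cells. After thinning, the shares were 40%, 65.6% and 39.4% in the class and 0.568%, 0.204% and 0.502% in B-like cells. The deeper sub-cluster had 1950.4, 4402 and 2018 CPM, with BT WT highest, but over the whole cluster BT WT was 1.54-fold (1.44 to 1.65) higher than PBS, below the 2-fold threshold. An unnamed sub-cluster led by Saa3, Prg4 and Retnla had more Cxcl2 than the named class, with 5335, 6334.5 and 3163 CPM in the 3 libraries over 8, 20 and 13 cells. In fibroblast-like cells Cxcl2 was low in PBS and BT mutant, at 2.59 CPM in PBS, 30.7 in BT WT and 2.70 in BT mutant, and BT WT, with 54 UMIs from 8 cells, was 11.9-fold (4.37 to 45.1) higher than PBS. Macrophage markers summed to 1073, 1399 and 1667 CPM in the fibroblast-like class (10 to 13 of 16 detected), a list that includes Apoe, which fibroblasts also express. Their part in this value was not tested. Cxcr2 itself had 26 UMIs over all kept cells.

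In fibroblast-like cells the inducible ligands Cxcl1, Cxcl10 and Ccl7 were higher in BT WT than in PBS, as was Cxcl14, and the B cell attractant Cxcl13 was lower. As a sum of the class, the eotaxin Ccl11 differed by at most 1.27-fold between the libraries. Of 13 ligands with a ratio, 6 were higher (Ccl7, Ccl8, Cxcl1, Cxcl2, Cxcl10 and Cxcl14) and 1 lower in BT WT than in PBS, beside 3.85% and 4.05% of all genes of the class. Comparing BT mutant with BT WT, 0 of 14 were higher and 5 lower (Ccl5, Ccl8, Cxcl2, Cxcl13 and Cxcl14), beside 2.57% and 2.59%. Comparing BT mutant with PBS, 1 of 11 was higher (Cxcl10) and 2 were lower (Cxcl13 and Cxcl14), beside 3.05% and 3.92%. The median log2 ratio of the ligands was 0.88, -0.64 and 0.28, against -0.00101, -0.01 and 0.01 over all genes of the class. Summed UMIs of 10 genes known to respond to tissue handling, such as Fos and Hspa1a, came to 22211, 20111 and 19591 CPM in fibroblast-like cells in the 3 libraries. In macrophage or monocyte-like cells they came to 12876.5, 14871 and 13181 CPM. Their part in the ligand levels was not tested.

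Ccl11, an eotaxin that attracts eosinophils through Ccr3, stood at 842 CPM (797 to 889) in PBS, 807 (765 to 850.0) in BT WT and 1024 (985 to 1064) in BT mutant. It was in 85.0%, 88.4% and 85.6% of fibroblast-like cells and in 0.562%, 0.332% and 0.738% of B-like cells. After thinning, the shares were 49.0%, 48.6% and 44.3% in fibroblast-like and 0.378%, 0.204% and 0.0837% in B-like cells. Within the larger of the 2 fibroblast-like clusters Ccl11 was 1.27-fold (1.18 to 1.36) higher in BT mutant than in BT WT. Within the smaller it was 1.74-fold (1.45 to 2.08) higher in BT mutant than in BT WT and 1.82-fold (1.47 to 2.25) higher than in PBS. Ccl7 stood at 134 CPM (116 to 153) in PBS, 352 (325 to 381) in BT WT and 182 (166 to 199) in BT mutant in fibroblast-like cells, 2.63-fold (2.24 to 3.09) higher in BT WT than in PBS. BT WT was thus highest for Ccl7 in both of its main classes. Ccl2 had 126 CPM in PBS, 186 in BT WT and 142 in BT mutant in the same class. Ccl8 was low there, at 7.76 CPM in PBS, 21.0 in BT WT and 5.01 in BT mutant, and BT WT was 2.71-fold (1.38 to 5.70) higher than PBS. In the smaller fibroblast-like cluster, with 9, 21 and 6 Ccl8 UMIs, BT WT was 1.41-fold (0.621 to 3.51) higher than PBS. BT mutant was 2.07-fold (0.810 to 6.28) lower than BT WT there, and both intervals include 1. In the larger cluster BT mutant was 3.68-fold (1.43 to 10.6) lower than BT WT. Cxcl12, which retains Cxcr4-bearing cells, had 366 CPM (337 to 398) in PBS, 411 (381 to 442) in BT WT and 294 (273 to 316) in BT mutant, lowest in BT mutant. Within neither fibroblast-like cluster was BT mutant lower than BT WT: the levels were 209, 178 and 199 CPM in the larger cluster and 1888, 1898 and 1945 CPM in the smaller, which was 13.6%, 20.9% and 8.27% of the class.

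**Figure D4:**
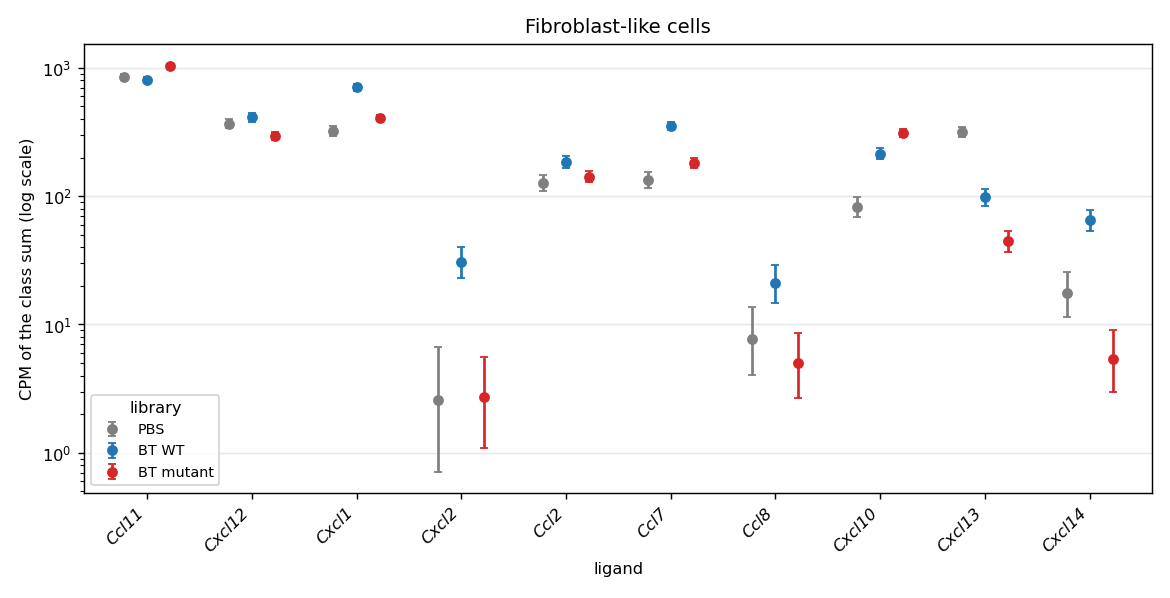
Levels of the ligands in fibroblast-like cells (CPM, log axis) in the PBS (grey), BT WT (blue) and BT mutant (red) libraries, with exact 95% Poisson intervals and open triangles at the floor of 3 UMIs where a library had 0. Cxcl13 has 3 levels with PBS highest, Cxcl14 and Cxcl1 are highest in BT WT, and Ccl11 lies between 807 and 1024 CPM.

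Cxcl13, which draws Cxcr5-bearing B cells into lymphoid follicles, and Cxcl14 had the largest ratios between libraries of the ligands with a ratio in their main source, and their promoters are shown for that reason. They lie at chr5:95956839-95956938, plus strand (Cxcl13) and chr13:56296552-56296728, minus strand (Cxcl14). Capitals mark the interferon-type motif (GAAA, 2 bases of any kind, GAAA), which starts 172 bases before the start of Cxcl14. The Cxcl13 window held none of the motifs searched.
Cxcl13: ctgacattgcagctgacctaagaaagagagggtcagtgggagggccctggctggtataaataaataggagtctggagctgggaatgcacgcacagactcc
Cxcl14: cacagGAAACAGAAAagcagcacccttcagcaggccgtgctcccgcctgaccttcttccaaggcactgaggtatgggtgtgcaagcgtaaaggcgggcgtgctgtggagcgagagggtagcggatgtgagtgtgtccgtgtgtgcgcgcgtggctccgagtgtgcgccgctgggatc

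Cxcl13 (ENSMUSG00000023078) stood at 318 CPM (290.2 to 347) in PBS, 97.7 (83.7 to 113) in BT WT and 44.4 (36.6 to 53.2) in BT mutant in fibroblast-like cells, and no intervals overlapped. BT WT was 3.25-fold (2.73 to 3.89) and BT mutant 7.16-fold (5.84 to 8.85) lower than PBS. The UMIs came from few cells: 24 of 147 in PBS, 24 of 215 in BT WT and 14 of 375 in BT mutant, and in BT mutant 1 cell held 33.0% of them. Most (426 of 491, 170 of 172 and 90 of 115 UMIs) lay in 1 of the 2 fibroblast-like clusters, the one led by Adamdec1, Grem1 and Bmp4, with 2946, 712 and 636 CPM over 20, 45 and 31 cells in the 3 libraries. This cluster was 13.6%, 20.9% and 8.27% of the class in these libraries. Within it BT mutant was 1.12-fold (0.862 to 1.46) lower than BT WT, an interval that includes 1, against 2.20-fold (1.73 to 2.82) lower in the class. In the other cluster the values were 46.4, 1.31 and 10.2 CPM, highest in PBS and lowest in BT WT.

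Cxcl14 (ENSMUSG00000021508) stood at 17.5 CPM (11.5 to 25.4) in PBS, 64.8 (53.4 to 77.8) in BT WT and 5.40 (2.95 to 9.06) in BT mutant in fibroblast-like cells. BT WT was 3.71-fold (2.42 to 5.87) higher than PBS, and BT mutant was 12.0-fold (6.86 to 22.6) lower than BT WT. In the larger fibroblast-like cluster alone these were 4.12-fold (2.55 to 6.97) higher and 15.1-fold (7.88 to 32.6) lower. In the smaller, with 6, 20 and 4 UMIs, they were 2.02-fold (0.782 to 6.14) higher and 2.96-fold (0.992 to 11.9) lower. Both intervals of the smaller cluster include 1. Again few cells carried Cxcl14: 7, 19 and 6 cells with a UMI in the 3 libraries, and 1 cell held 29.6%, 31.6% and 35.7% of its UMIs.

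Cxcl9 and Cxcl10, interferon-inducible ligands of Cxcr3 on effector T and NK cells, lie side by side on chromosome 5 (92321347 to 92348889). Both were low in PBS in macrophage or monocyte-like cells, and they differed in their sources. Their promoters, also chosen after the values were seen, are shown for the NF-kB-type, interferon-type and AP-1-type (TGANTCA) matches, in capitals: chr5:92328080-92328214, minus strand for Cxcl9 and chr5:92348890-92349107, minus strand for Cxcl10.
Cxcl9: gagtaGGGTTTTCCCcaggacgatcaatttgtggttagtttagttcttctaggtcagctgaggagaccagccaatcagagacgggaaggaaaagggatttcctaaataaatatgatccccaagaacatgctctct
Cxcl10: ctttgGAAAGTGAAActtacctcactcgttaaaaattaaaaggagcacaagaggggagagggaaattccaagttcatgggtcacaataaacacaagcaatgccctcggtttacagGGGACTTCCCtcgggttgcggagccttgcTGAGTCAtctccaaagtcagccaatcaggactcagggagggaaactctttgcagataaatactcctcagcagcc

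The Cxcl9 window has 1 NF-kB-type match, 130 bases before the start. The Cxcl10 window has an interferon-type match at 213, an NF-kB-type match at 103 and an AP-1-type match at 74 bases. Cxcl10 (ENSMUSG00000034855) stood at 82.2 CPM (68.5 to 97.8) in PBS, 215 (194 to 238) in BT WT and 312 (291 to 335) in BT mutant in fibroblast-like cells, which held 47.4% of its UMIs as a mean over the libraries. PBS was lowest, and BT WT and BT mutant were 2.61-fold (2.13 to 3.22) and 3.80-fold (3.15 to 4.62) higher. In the larger fibroblast-like cluster they were 3.06-fold (2.45 to 3.83) and 4.27-fold (3.49 to 5.28) higher. In the smaller, with 20, 23 and 10 UMIs, they were 1.44-fold (0.748 to 2.73) and 1.96-fold (0.874 to 4.68) lower, and both intervals include 1. Among macrophage or monocyte-like cells PBS had 1 UMI, and the levels were 2.74 CPM (0.0694 to 15.3) in PBS, 130.1 (99.3 to 168) in BT WT and 77.9 (58.2 to 102) in BT mutant. The ratio to PBS was 47.5-fold (8.20 to 1905) for BT WT and 28.4-fold (4.88 to 1144) for BT mutant. Over the whole macrophage cluster, with 7, 109 and 103 UMIs, BT WT was 10.7-fold (5.03 to 27.3) higher than PBS and BT mutant 8.55-fold (4.01 to 21.8). Blood endothelial-like cells had 14, 2 and 28 UMIs. The glia-like class, formally the main source, had 19 UMIs in BT WT and 0 in the others.

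Cxcl9 (ENSMUSG00000029417) was highest in blood endothelial-like cells, at 10.2 CPM (1.23 to 36.8) in PBS, 108 (70.1 to 159.9) in BT WT and 99.98 (64.1 to 149) in BT mutant. PBS lay below the 2 colonized libraries, whose intervals overlapped, but 66.7% of the BT mutant UMIs came from 1 cell, and the 27 PBS cells were too few for a ratio. In macrophage or monocyte-like cells Cxcl9 stood at 10.97 CPM (2.99 to 28.1) in PBS, 75.9 (52.9 to 106) in BT WT and 2.998 (0.363 to 10.8) in BT mutant, and BT WT, with 35 UMIs from 4 cells, was 6.92-fold (2.47 to 26.8) higher than PBS. The value of BT mutant there rests on the naming: an unnamed sub-cluster led by Mcpt1, Cd209a and H2-Ab1 held 63 Cxcl9 UMIs in BT mutant, and over the whole cluster the PBS, BT WT and BT mutant values were 5.53, 45.7 and 52.2 CPM. Over that cluster BT WT was 8.27-fold (3.03 to 31.6) and BT mutant 9.44-fold (3.52 to 35.7) higher than PBS.

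Cxcl16, a membrane-anchored ligand of Cxcr6 on innate lymphoid and memory T cells, had both a macrophage and an epithelial part. It stood at 35.7 CPM (19.0 to 61.0) in PBS, 143 (111 to 182) in BT WT and 64.5 (46.6 to 86.8) in BT mutant in macrophage or monocyte-like cells, 4.02-fold (2.19 to 7.93) higher in BT WT than in PBS and 2.22-fold (1.49 to 3.34) lower in BT mutant than in BT WT. Over the whole cluster the difference between PBS and BT WT was smaller: BT WT was 1.27-fold (0.950 to 1.70) higher, with 75 UMIs in PBS against 13 in the named class. BT mutant was 2.44-fold (1.81 to 3.32) lower than BT WT there too. In colonocyte-like cells Cxcl16 stood at 10.6 CPM (8.89 to 12.6) in PBS, 25.2 (23.0 to 27.5) in BT WT and 15.8 (14.2 to 17.4) in BT mutant, and BT WT was 2.37-fold (1.95 to 2.89) higher than PBS. The clusters of this class differ between libraries. Within a cluster that held 2.38% of the class in PBS and 7.61% in BT WT, BT WT was 5.54-fold (3.10 to 9.34) lower, with 17 UMIs in PBS. The 13 dendritic-like cells, 12 of them in BT WT, held 167 Cxcl16 UMIs, at 1241 CPM in BT WT.

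Ccl17 and Ccl22, which attract Ccr4-bearing T cells, are known from migratory dendritic cells, and the dendritic-like cells were too few to count as a source. Ccl22 had 381 UMIs in all, and 353 of them lay in the 13 dendritic-like cells: 144 in the 1 cell of PBS (7219 CPM) and 209 in the 12 cells of BT WT (1651 CPM). Of these 12 cells 7 had a Ccl22 UMI, and 1 cell held 169 of the 209. BT mutant had no dendritic-like cell and 3 Ccl22 UMIs. Ccl17 had 149 UMIs, 44 of them in dendritic-like cells. In macrophage or monocyte-like cells it had 14, 1 and 7 UMIs in the 3 libraries, and the BT mutant level was 3.66-fold (1.38 to 10.7) lower than PBS, where 1 cell held 92.9% of the UMIs. Over the whole macrophage cluster the direction was the other one, with BT mutant 1.71-fold (0.951 to 3.23) higher than PBS, an interval that includes 1.

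The lymphocyte ligands were highest in the NK or innate lymphoid-like class, which had 10, 36 and 26 cells in the 3 libraries, too few for a ratio with PBS or BT mutant. Ccl5, a ligand of Ccr1 stored by cytotoxic lymphocytes, stood at 4231 CPM (3708 to 4806) in PBS, 5352 (4979.6 to 5746) in BT WT and 7025 (6533 to 7544) in BT mutant, highest in BT mutant and with no overlap of intervals, though 1 cell held 28.0% of the UMIs in PBS. Over the whole cluster that holds this class, which adds T-like and unnamed cells, that order did not hold. The levels there were 4591, 4144 and 4286 CPM, with PBS highest. BT mutant was 1.03-fold (0.977 to 1.09) above BT WT there, an interval that includes 1. In T-like cells Ccl5 stood at 876 CPM (822 to 933) in PBS, 482 (449 to 516) in BT WT and 1142 (1058 to 1231) in BT mutant. BT WT was lowest, and BT mutant was 2.37-fold (2.14 to 2.63) higher than BT WT. The class is made of 2 clusters. T-like cells of the cluster that also holds the NK or innate lymphoid-like cells were 19.8%, 12.3% and 19.2% of the class and had 4234, 3656 and 6395 CPM. Within them BT mutant was 1.75-fold (1.57 to 1.95) higher than BT WT, and in the other cluster 1.09-fold (0.756 to 1.56), so neither passed 2-fold. An unnamed cluster led by Ly6c2, Nkg7 and Klrk1 exceeded both classes at a mean of 7651 CPM, and the 12 dendritic-like cells of BT WT had 8399.6 CPM. Elsewhere Ccl5 was sparse. Macrophage or monocyte-like cells had 36, 64 and 0 UMIs from 2, 5 and 0 cells, which made BT mutant at least 30.9-fold lower than BT WT at a floor of 3 UMIs. T cell markers in the macrophage or monocyte-like class summed to 10.97, 45.5 and 39.0 CPM, with 3 to 5 of 12 detected. Fibroblast-like cells had 11, 23 and 1 Ccl5 UMIs, and T cell markers summed to 29.1, 18.2 and 1.16 CPM in the fibroblast-like class. The part of T cell RNA in these values was not tested.

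Ccl4, a CC ligand of activated lymphocytes and macrophages, stood at 1595 CPM (1281 to 1963) in PBS, 2746 (2481 to 3032) in BT WT and 1561 (1334 to 1816) in BT mutant in NK or innate lymphoid-like cells, highest in BT WT. Among T-like cells BT WT was lowest, with 47.7 CPM in PBS, 11.4 in BT WT and 41.8 in BT mutant, and BT WT was 4.17-fold (2.43 to 7.46) lower than PBS. B-like cells also had BT WT below PBS, with 30.1 CPM in PBS, 11.4 in BT WT and 18.9 in BT mutant, or 2.64-fold (1.90 to 3.70) lower. Most B-like cells of PBS (73.3%) were in another cluster than most of those of the other libraries. In that cluster BT WT was 2.63-fold (1.63 to 4.46) lower than PBS, but in the other it had 28 UMIs against 3 in PBS and was 3.03-fold (0.937 to 15.6) higher. Ccl3, a ligand of Ccr1, had 2, 87 and 41 UMIs in the 3 libraries in NK or innate lymphoid-like cells. In macrophage or monocyte-like cells it was nearly as high, at 453 CPM (386 to 527) in PBS, 308 (259 to 363) in BT WT and 219 (185 to 257) in BT mutant, with PBS 2.07-fold (1.65 to 2.60) above BT mutant. Over the whole macrophage cluster PBS was 1.72-fold (1.44 to 2.06) above BT mutant, under the 2-fold threshold, and BT WT was lowest, with 339.9, 172 and 198 CPM. Xcl1, the C-family ligand that attracts Xcr1-bearing dendritic cells, stood at 1129 CPM (868 to 1445) in PBS, 2339.9 (2096 to 2605) in BT WT and 1858 (1609.8 to 2135) in BT mutant in NK or innate lymphoid-like cells. PBS was lowest there, but in T-like cells, at 155 CPM in PBS, 56.0 in BT WT and 85.3 in BT mutant, PBS was highest and BT WT 2.76-fold (2.14 to 3.60) lower. Within the T-like cells of the cluster shared with NK or innate lymphoid-like cells, BT WT was 1.43-fold (1.08 to 1.91) lower, under the 2-fold threshold. That part had 133 Xcl1 UMIs in PBS and 85 in BT WT. In the other T-like cluster BT WT was 7.91-fold (3.65 to 19.6) lower, with 39 and 8 UMIs.

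Ccl21a, which draws Ccr7-bearing cells into lymphatic vessels, reached the highest level of all ligands described. It stood at 12891 CPM (12247 to 13561) in PBS, 4841 (4440.1 to 5269) in BT WT and 5621 (5317 to 5937) in BT mutant in lymphatic endothelial-like cells, of which there were 13, 15 and 31. PBS was above both colonized libraries, but with fewer than 30 cells in 2 libraries no ratio was formed, and 1 cell held 19.7%, 21.8% and 43.7% of the UMIs. Ccl21a and Ccl19 each have 2 gene rows, which were summed. The copies are nearly identical and reads could be split or lost between them, so these levels are uncertain. Cxcl12 stood at 1253 CPM (1102 to 1420.1) in PBS, 2001 (1823 to 2192) in BT WT and 1196 (1061 to 1342) in BT mutant in blood endothelial-like cells. BT WT was highest, 1.67-fold (1.44 to 1.95) above BT mutant, and PBS and BT mutant overlapped. Ccl19, the other Ccr7 ligand, had 48 UMIs in all, 39 of them in fibroblast-like cells, with 8, 11 and 20 UMIs in the 3 libraries.

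The epithelium was a low but broad source. In colonocyte-like cells Cx3cl1 was the most abundant ligand and was highest in BT WT, Ccl28 and Ccl25 were nearly level over the libraries as sums of the class, and Cxcl5 was highest in PBS. Of 20 ligands with a ratio, 4 were higher (Ccl8, Cxcl9, Cxcl13 and Cxcl16) and 4 lower (Ccl5, Ccl11, Ccl20 and Cxcl5) in BT WT than in PBS, beside 16.1% and 8.61% of all genes. From BT WT to BT mutant, 3 of 22 were higher (Ccl2, Ccl11 and Ccl21a) and 5 lower (Ccl5, Ccl6, Cxcl5, Cxcl9 and Cxcl10), beside 4.14% and 6.75%. From PBS to BT mutant, 4 of 20 were higher (Ccl8, Ccl21a, Cxcl13 and Pf4) and 4 lower (Ccl5, Ccl20, Cxcl2 and Cxcl5), beside 7.93% and 6.96%. Median log2 ratios were 0.47, -0.33 and 0.13 for the ligands and 0.23, -0.16 and 0.09 for all genes. Several of the ligands counted here, such as Ccl2, Ccl8, Ccl11, Ccl21a and Pf4, had their main source in other classes. In the colonocyte-like cluster that held 46.3% of the class in BT mutant, Ccl21a had 20 UMIs in BT mutant and 2 in BT WT. Ccl11 had 21 and 2 there. The part of RNA from other cells in these counts was not tested. The colonocyte-like class was made up differently in each library: 60.5% of those of PBS, 49.3% of BT WT and 46.3% of BT mutant lay in 3 separate clusters, the first led by Gsta1 and Apoc2, the others by Ifit1bl1 and Slc17a4. The median depth of the class was 10191, 3954.5 and 3340 UMIs.

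Cx3cl1, a membrane-anchored ligand that holds Cx3cr1-bearing macrophages near the epithelium, stood at 31.5 CPM (28.4 to 34.7) in PBS, 58.0 (54.7 to 61.5) in BT WT and 39.6 (37.1 to 42.2) in BT mutant. BT WT was 1.84-fold (1.64 to 2.07) higher than PBS, and no intervals overlapped. It was in 32.0%, 24.5% and 19.3% of colonocyte-like cells and 1.03%, 2.06% and 0.820% of B-like cells. After thinning, the shares were 3.75%, 5.61% and 3.71% in colonocyte-like and 0.378%, 0.408% and 0.251% in B-like cells, and BT WT was highest, as in CPM. Ccl28, which attracts Ccr10-bearing IgA plasma cells, was highest in stem or transit-amplifying-like cells at 61.7 CPM (48.1 to 78.0) in PBS, 40.0 (30.1 to 52.0) in BT WT and 43.6 (31.5 to 58.7) in BT mutant. This class is a single sub-cluster whose leading genes also include Gcg and Pyy of enteroendocrine cells. In colonocyte-like cells Ccl28 had 21.3 CPM in PBS, 19.3 in BT WT and 17.7 in BT mutant, and Ccl25, the ligand of the gut-homing receptor Ccr9, had 16.0 CPM in PBS, 16.8 in BT WT and 12.5 in BT mutant. Within a colonocyte-like cluster that held 2.38%, 7.61% and 20.6% of the class, Ccl25 had 15, 32 and 155 UMIs. There BT WT was 14.7-fold (7.38 to 27.9) and BT mutant 6.69-fold (3.66 to 11.4) lower than PBS. Cxcl5, a neutrophil attractant of epithelium, had 43, 28 and 9 UMIs in the 3 libraries in colonocyte-like cells, and PBS was 2.45-fold (1.49 to 4.09) above BT WT and 9.03-fold (4.34 to 21.1) above BT mutant.

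Ccl6 had a second source in secretory epithelium. It stood at 335 CPM (300.4 to 372) in PBS, 328 (313 to 344) in BT WT and 117 (94.6 to 143) in BT mutant in goblet-like cells. In deep crypt secretory-like cells it stood at 559 CPM (531 to 589.6) in PBS, 555 (524 to 587) in BT WT and 170.1 (148 to 195) in BT mutant. PBS and BT WT overlapped in both classes, and BT mutant was 2.80-fold (2.28 to 3.49) and 3.26-fold (2.82 to 3.79) lower than BT WT. Macrophage markers summed to 64.4, 65.0 and 98.4 CPM in the goblet-like and 100.2, 67.8 and 65.0 CPM in the deep crypt secretory-like class, in the 3 libraries, with 9 to 13 of 16 detected. The part of macrophage RNA in these values was not tested. Ccl9 in deep crypt secretory-like cells went the other way, at 10.8 CPM in PBS, 27.1 in BT WT and 40.9 in BT mutant, and BT mutant was 3.80-fold (2.34 to 6.30) higher than PBS. The handling genes summed to 8549.9, 8873 and 4376 CPM in the deep crypt secretory-like class, and their part in the ligand levels was not tested.

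Ccl20, which attracts Ccr6-bearing lymphocytes to the epithelium over lymphoid follicles, was carried by very few cells. In colonocyte-like cells it stood at 8.22 CPM (6.71 to 9.97) in PBS, 1.90 (1.35 to 2.61) in BT WT and 2.49 (1.90 to 3.21) in BT mutant, and BT WT was 4.32-fold (2.95 to 6.44) lower than PBS, but 1 cell held 81.6% of the PBS and 67.8% of the BT mutant UMIs. Under 5 of 12 other settings the direction of BT WT over PBS turned. The 9 M cell or follicle-associated epithelium-like cells had 24, 44 and 5 UMIs in the 3 libraries, or 1846 CPM in PBS, 1818 in BT WT and 899 in BT mutant, far above every class large enough to be a source.

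**Figure D5:**
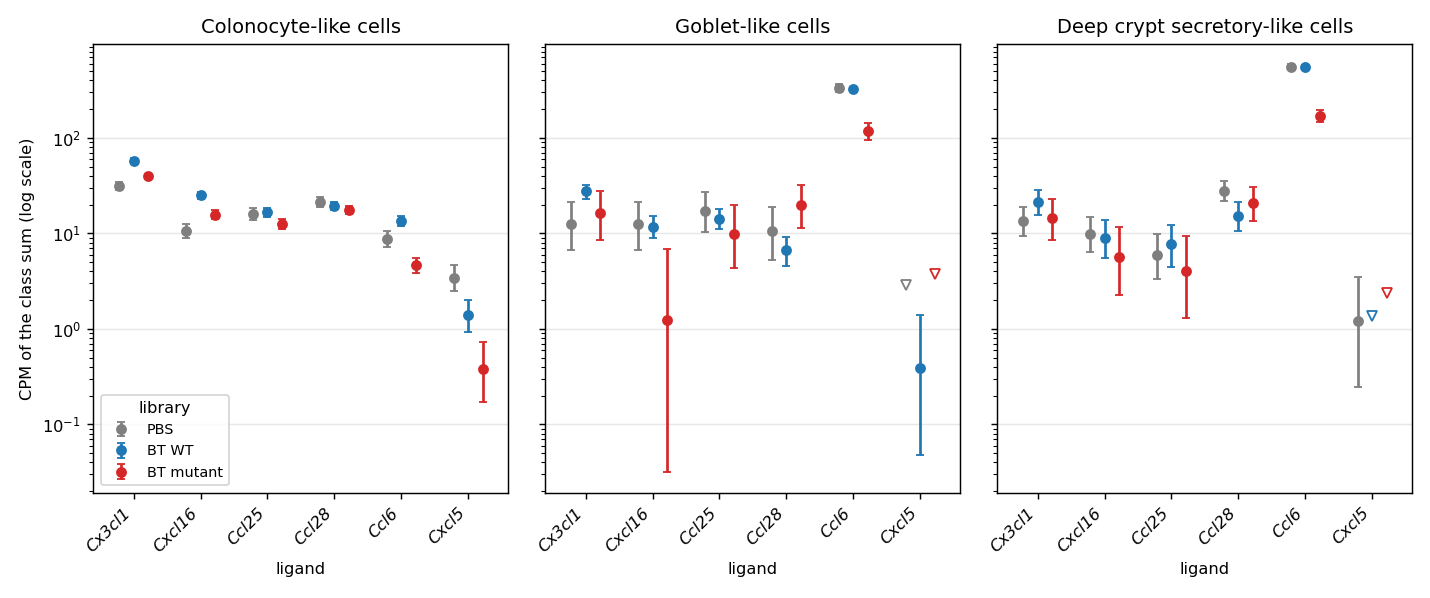
Levels of the ligands (CPM, log axis) in colonocyte-like, goblet-like and deep crypt secretory-like cells, 1 panel each, in the PBS (grey), BT WT (blue) and BT mutant (red) libraries, with exact 95% Poisson intervals and open triangles at the floor of 3 UMIs where a library had 0. Ccl6 is the highest ligand of both secretory classes and is lowest in BT mutant, and Cx3cl1 leads in colonocyte-like cells with BT WT highest.

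Among the ligands below 50 UMIs, all with CXC structure except Ccl19, Cxcl3 had 0, 16 and 5 UMIs in the 3 libraries, Ppbp 8, 2 and 0, and Cxcl15 1 UMI, in BT WT. Ppbp and Pf4 are both platelet ligands. Pf4 had 3846 UMIs against 10 for Ppbp. Promoter sequences were found in RefSeq for 25 of the 34 ligands. Those of Ccl2, Ccl4, Ccl5, Ccl7, Ccl11, Ccl24, Cxcl5, Cxcl11 and Cxcl16 were not matched. In the 250 bases before the start, both strands searched, the NF-kB-type motif occurred in 8 of 25 ligands (Ccl9, Ccl19, Ccl20, Cxcl1, Cxcl2, Cxcl3, Cxcl9 and Cxcl10) and in 4% of 27025 promoters. The interferon-type motif occurred in 3 of 25 (Ccl19, Cxcl10 and Cxcl14) and 3.04% of all, and the AP-1-type motif TGANTCA in 3 of 25 (Ccl9, Cxcl10 and Ppbp) and 6.87% of all. In Cxcl1, Cxcl2 and Cxcl3 the sequence gggaatttcc recurs, 71, 97 and 73 bases before the start. The windows of Ccl21a, Pf4, Cx3cl1 and Xcl1, the highest ligands of the CC, CXC, CX3C and C families, held no match to these motifs.

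The inducers and feedback genes of ligand transcription, 15 in the list (NF-kB and interferon factors and cytokines), were read in the macrophage or monocyte-like, fibroblast-like and colonocyte-like classes. In macrophage or monocyte-like cells 2 of 9 with a ratio were higher and none lower in BT WT than in PBS, beside 7.08% and 4.66% of all genes of the class: Tnfaip3, an NF-kB inhibitor, 2.82-fold (1.98 to 4.09), and the cytokine Il1b 34.4-fold (9.24 to 289), with 2 UMIs in PBS. Between BT mutant and BT WT none of 9 was higher and 3 were lower, beside 4.18% and 5.34%: Il1b 4.20-fold, Tnf 3.78-fold and Relb 2.20-fold lower. Between BT mutant and PBS 2 of 9 were higher, beside 7.06%, with Il1b at 8.20-fold (2.08 to 70.8) and Tnfaip3 at 2.23-fold (1.57 to 3.21), and 1 was lower, beside 5.52%, with Tnf at 3.76-fold. Fibroblast-like cells had none of 8 past 2-fold in BT WT over PBS, beside 3.85% higher and 4.05% lower of all genes. They had 1 of 8 (Ltb) lower in BT mutant than in BT WT, beside 2.59%, and none of 7 past 2-fold between BT mutant and PBS. Colonocyte-like cells had 5 of 9 higher in BT WT than in PBS, beside 16.1% of all genes, among them Tnf 4.04-fold (1.99 to 9.28), Irf1 3.76-fold (3.44 to 4.12) and Tnfaip3 2.97-fold (2.70 to 3.28), and 1 lower (Ltb), beside 8.61%. Between BT mutant and PBS, 2 were higher there (Irf1 and Nfkbiz) and 1 lower (Ltb), beside 7.93% and 6.96%, and between BT mutant and BT WT 1 was lower (Tnf), beside 6.75%. Ltb was highest in NK or innate lymphoid-like cells, at a mean of 506 CPM. It had 13.1 CPM in BT WT and 1.93 in BT mutant in fibroblast-like cells, and 3.59, 0.852 and 1.27 CPM in the 3 libraries in colonocyte-like cells. The part of lymphocyte RNA in these values was not tested.

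The known receptors of these ligands were read in the same way, each in the class where it was highest. Ccr1, which binds Ccl6, Ccl9, Ccl3 and Ccl5, was highest in macrophage or monocyte-like cells, at 118, 191 and 64.5 CPM in the 3 libraries, with BT WT highest. Ccr2 was highest in NK or innate lymphoid-like cells, at 17.9, 133 and 167 CPM over 10, 36 and 26 cells. The PBS value lay below the floor of 3 UMIs, which is 53.8 CPM there. Ccr2 had 823 UMIs over all kept cells. B-like cells led for Cxcr5 (101, 95.1 and 71.4 CPM), the receptor of Cxcl13, for Ccr6 (45.7, 85.6 and 69.6 CPM), the receptor of Ccl20, for Ccr7 (537, 387 and 336 CPM) and for Cxcr4 (249, 167 and 299.6 CPM). Cxcr3 and Cxcr6 were highest in NK or innate lymphoid-like cells, at 53.8, 105 and 112 CPM for Cxcr3 and 71.7, 126 and 65.0 CPM for Cxcr6, on 3 to 18 UMIs per library. The scavenging receptor Ackr3, which binds Cxcl12, was highest in fibroblast-like cells, at 247, 322 and 439 CPM, and Ackr4, which binds Ccl19, Ccl21a and Ccl25, likewise at 234, 210.3 and 223 CPM. Ackr1, a chemokine carrier of venules, was highest in blood endothelial-like cells (81.5, 86.6 and 204 CPM), and Ackr2 in lymphatic endothelial-like cells (146, 36.1 and 185 CPM). Ccr9, the receptor of Ccl25, was highest in T-like cells (36.0, 24.1 and 25.1 CPM). The receptor of Cx3cl1, Cx3cr1, had 172 UMIs over all kept cells. Of the named classes it was highest in macrophage or monocyte-like cells, at 0, 17.4 and 7.49 CPM, but only few of its UMIs lay there. Ccr3, Ccr4 and Ccr10, the receptors of the eotaxins, of Ccl17 and Ccl22 and of Ccl28, had 6, 16 and 84 UMIs over all kept cells.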

How the data were processed

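Single-cell RNA of mouse colon was read from 3 deposited matrices, 1 per group. Per the file headers, the authors produced these UMI counts per gene and barcode with Cell Ranger 5.0.0, and the submitters' processing notes name STAR and mm10. Ambient RNA was not subtracted and no doublet caller was applied in the reported values. The labels do not state that doublets were removed.

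Barcodes with at least 300 genes and at most 25% mitochondrial UMIs were kept (16406 cells). Cells were clustered with Python 3.11.15, scanpy 1.11.5 and leidenalg 0.10.2 (2000 variable genes, 30 components, 15 neighbours, resolution 1), without mitochondrial, ribosomal, immunoglobulin, T cell receptor, sex-linked, chemokine and chemokine receptor genes. The 27 clusters, other than those of colonocyte-like or B-like cells, were divided once at resolution 0.7 into 101 in all. Of 26 marker sets, 21 gave a named class. A name needed a score of at least 1.5 and at least 3 markers at least 2-fold up.

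UMIs were summed per class and library and compared with exact conditional binomial intervals (scipy 1.17.1, 95%), which cover counting error only. With 1 library per group nothing was tested. A library with 0 UMIs enters a ratio at a floor of 3 UMIs. All ligands with at least 50 UMIs were described in their main source. The ratio script was tested on simulated data.

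The ligands, gene lists and alternatives were chosen with earlier results of these data known. The naming rule was settled over 4 versions after the clusters had been seen, the last of them after ligand levels had been seen. The limit to named classes, the handling genes, the values within clusters and sub-clusters and the promoters of Cxcl1, Cxcl2, Cxcl9 and Cxcl10 were also chosen after values were seen. The promoters named by rule were those of the highest ligand of each family and of the pair with the largest ratios. Proteins are not shown here.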

Additional observations from a re-analysis of the deposited data

Results flagged for a closer look

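In 4 ligands the libraries differed in opposite directions in different classes, each past 2-fold with an interval that excludes 1. With 1 library per group these differences between classes were not tested, and no group had enough samples for the check of a sample far from the others.

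Cxcl13 was lower in fibroblast-like cells of BT WT than of PBS by 3.25-fold, and higher in colonocyte-like cells by 3.77-fold (2.20 to 6.85), where it stood at 1.28 CPM in PBS, 4.81 in BT WT and 4.05 in BT mutant. Between BT mutant and PBS it was lower by 7.16-fold in fibroblast-like cells, higher by 3.17-fold (1.86 to 5.77) in colonocyte-like cells, and higher by at least 5.83-fold in macrophage or monocyte-like cells, where PBS had 0 UMIs. Between BT mutant and BT WT it was lower by 2.20-fold in fibroblast-like cells and higher by 4.42-fold (1.71 to 14.5) in macrophage or monocyte-like cells. Over the whole macrophage cluster, with the unnamed sub-clusters, BT mutant was lower instead, by 2.37-fold (1.54 to 3.72) against BT WT. Against PBS it was lower there by 1.88-fold (1.14 to 3.11), with 36 UMIs in PBS and 33 in BT mutant.

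Ccl5 was higher in BT mutant than in BT WT by 2.37-fold in T-like cells, but by 1.75-fold and 1.09-fold within the clusters of that class, whose shares differed between libraries (12.3% of the class in BT WT and 19.2% in BT mutant lay in the cluster shared with the NK or innate lymphoid-like cells). It was lower by 2.67-fold (1.54 to 4.77) in colonocyte-like cells, by 33.9-fold (5.50 to 1396) in fibroblast-like cells, where BT mutant had 1 UMI, and by at least 30.9-fold in macrophage or monocyte-like cells. Ccl3 was higher in BT mutant than in PBS by 44.6-fold (7.27 to 1834) in T-like cells, where PBS had 1 UMI, and lower by 2.35-fold (1.05 to 5.77) in B-like cells and by 2.07-fold in macrophage or monocyte-like cells, which was 1.72-fold over the whole macrophage cluster. In the cluster that held 73.3% of the B-like cells of PBS and 6.07% of those of BT mutant, Ccl3 had 22 and 0 UMIs. The interval of the ratio there included 1. Cxcl10 was higher in BT mutant than in BT WT by 13.5-fold (3.40 to 116.6) in blood endothelial-like cells, where BT WT had 2 UMIs, and lower by 2.44-fold (1.89 to 3.16) in colonocyte-like cells. Among these the direction differed by cluster: BT mutant was 5.68-fold (3.32 to 9.30) higher in the cluster that held 49.3% of the class in BT WT and 2.21% in BT mutant, and 2.69-fold (1.86 to 3.92) lower in one that held 7.61% and 20.6%.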

How the results depend on the processing

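The comparisons rest on 3 libraries, so an effect of a library cannot be told apart from an effect of its group. No paired analysis was possible because each group has 1 library. PBS had fewer kept cells and the lowest median mitochondrial share (5.77% against 12.5% in BT WT and 11.2% in BT mutant), and small classes such as the dendritic-like cells limit what was compared. Ratios under other settings keep the pairs of ligand and class of the reported setting.

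In their main source, 7 ligands passed 2-fold in BT WT over PBS, 4 in BT mutant over BT WT and 4 in BT mutant over PBS, and 29 had a source. Of the 69 recomputed counts and sources, 58 stayed within 1.5 times of these. The number of ligands past 2-fold for BT mutant over BT WT was 2 with at least 500 genes per barcode. Leiden resolution 2.0 gave 3 for BT WT over PBS and 2 for BT mutant over PBS, where fewer ligands had a ratio. For BT mutant over PBS the number was 2 with each cell thinned to 1000 UMIs (Ccl8 higher and Cxcl13 lower), 7 with equal weight per cell and 2 with at least 50 UMIs. With 1.5-fold as the threshold it was 11 for BT WT over PBS and 9 for BT mutant over BT WT. The main source stayed the same for 19 of 29 ligands when taken as the class with the most UMIs, and for 15 of 29 when unnamed clusters were allowed. Ccl22 and Cxcl5 changed source in 10 settings each. The median share of cells with a UMI was 19.4% after thinning against 42.3%. The cause was not tested.

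Ccl20 in colonocyte-like cells turned direction. Its log2 ratio of BT WT over PBS was 0.34 without a mitochondrial limit, 0.12 with at least 500 genes, 1.41 at Leiden resolution 0.5, 0.021 at resolution 2.0 and 0.092 with the highest doublet scores removed. For BT mutant over PBS it was 0.35 with at least 500 genes, 1.83 at resolution 0.5, 0.50 at resolution 2.0 and 0.39 with those doublets removed. The cause was not tested. Of the other calls, the BT WT over PBS ratio of Cxcl2 kept its side of 2-fold in 7 of 12 settings, with a lowest value of 1.51-fold. The BT mutant over BT WT ratio of Cxcl16 kept it in 7 of 12 and that of Ccl7 in 11 of 13. Cxcl1 lost its call when cells were thinned (1.66-fold). The BT WT over PBS call of Cxcl13 was lost with equal weight per cell (1.55-fold lower) and its BT mutant over BT WT call with at least 500 genes (1.99-fold lower). The Cxcl14 calls in the 3 comparisons, the Ccl12 call and the BT mutant over PBS call of Cxcl13 held in all their settings. Under the 3 earlier versions of the naming rule the counts were 7, 4 and 4 each time, and the source was the same for 25, 25 and 29 of 29 ligands.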
